A study of Mus musculus with 6 samples.

Results

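The 37 genes described here are the mouse genes of glycolysis and of the response to low oxygen that were listed by name: 19 enzymes of glycolysis with their regulators and lactate dehydrogenases, 4 transporters of glucose or lactate, and 14 genes of the hypoxia-inducible factor (HIF) system and its targets. They were found by symbol among 26532 genes in the table, all 37 were present, and 36 passed the low-count filter. RNA was sequenced from wild-type mouse embryonic fibroblasts (MEFs), labelled as mesenchymal stem cells under osteogenic differentiation. The 3 control libraries came from cells given an adenovirus with green fluorescent protein (GFP), and the 3 others from cells that overexpressed ORAI2, a pore subunit of store-operated calcium channels, from a recombinant adenovirus. All 6 libraries share the osteogenic treatment. Nothing in the labels gives a separate culture for each library, so the p-values measure the spread between these samples only, which may be technical.

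Glycolysis turns glucose into pyruvate in the cytosol, with lactate dehydrogenase regenerating the cofactor that the pathway consumes. HIF-1, made of HIF-1α and its partner ARNT, binds DNA when oxygen is low and switches on most glycolytic genes together with genes of pH control, mitophagy and collagen hydroxylation. Prolyl hydroxylases (the EGLN proteins) mark HIF-1α for destruction when oxygen is present, and some of them are themselves HIF targets. In fibroblasts the hydroxylases of the P4HA family modify procollagen, so that collagen assembly and the hypoxia response share genes.

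Total counts were between 18526884 and 18844436 per library, and Orai2 rose from between 909 and 994 counts in the GFP libraries to between 45140 and 67882 in the ORAI2 libraries. Of the markers fixed for fibroblasts, 9 of 10 were measured and all 9 fell, with a summed level of 8118 to 8622 CPM (counts scaled to library size) in GFP and 6403 to 6914 CPM in ORAI2 libraries. Thy1, the tenth, was at 0.16 CPM or less everywhere. Over all tested genes, 22.1% fell by the test given below. Most of the fibroblast sum was Fn1, at 5514 to 6095 CPM in GFP and 4929 to 5447 CPM in ORAI2 libraries. Col1a1 fell further, from 1222 to 1314 CPM in GFP to 467 to 503 CPM in ORAI2 libraries. Macrophage markers summed to between 52.0 and 56.2 CPM in GFP and between 26.7 and 36.0 CPM in ORAI2 libraries, mostly from Cd14 and Mpeg1, with the defining genes Ptprc and Csf1r at 0.21 CPM or less in every library. Endothelial markers summed to between 6.48 and 8.83 CPM in GFP and between 16.3 and 17.6 CPM in ORAI2 libraries. The sum came mostly from Kdr and Vwf, which both rose, with Pecam1 and Cdh5 at 0.37 CPM or less. Epithelial markers summed to between 2.73 and 3.75 CPM in GFP and between 4.22 and 5.12 CPM in ORAI2 libraries, with Grhl2 higher and the defining gene Epcam at 0 in every library. Neural and glial markers summed to between 131.3 and 145.4 CPM in GFP and between 163.3 and 174.7 CPM in ORAI2 libraries, mostly from Nes, which rose, while Mbp fell and the defining gene Gfap was at 0.43 CPM or less. Erythroid markers stayed at 1.44 CPM or less. The part of these shifts in the results below was not tested. In bulk RNA, fewer cells of a type and less RNA per cell cannot be told apart.

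Of the 36 measured genes, 27 fell, 2 rose and 7 did not pass the test in the ORAI2 libraries. The test was edgeR's quasi-likelihood test with a Benjamini-Hochberg adjusted p under 0.05 over all 13764 tested genes, of which 22.1% fell and 20.8% rose (42.9% in all). The median log2 fold change of the 36 genes was -0.38, a level 1.3-fold lower, against -0.002 over all tested genes. The members were chosen with earlier results of these data known, so these contrasts describe the list and are no test of it. Among the 2695 abundant genes (mean of 100 CPM or more), 24.1% fell and 35.6% rose, while 13 of the 18 listed genes above that level fell and 2 rose. The ORAI2 libraries lay wholly below the GFP libraries for 27 of the 36 genes and wholly above for 3, where 26.6% and 26.2% of all tested genes did so. The changes were moderate. No listed gene fell 2-fold, and 6 of the 36 fell at least 1.5-fold. Over all 13764 tested genes, 1026 (7.45%) fell that far, a smaller share than in the list.

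**Figure D1:**
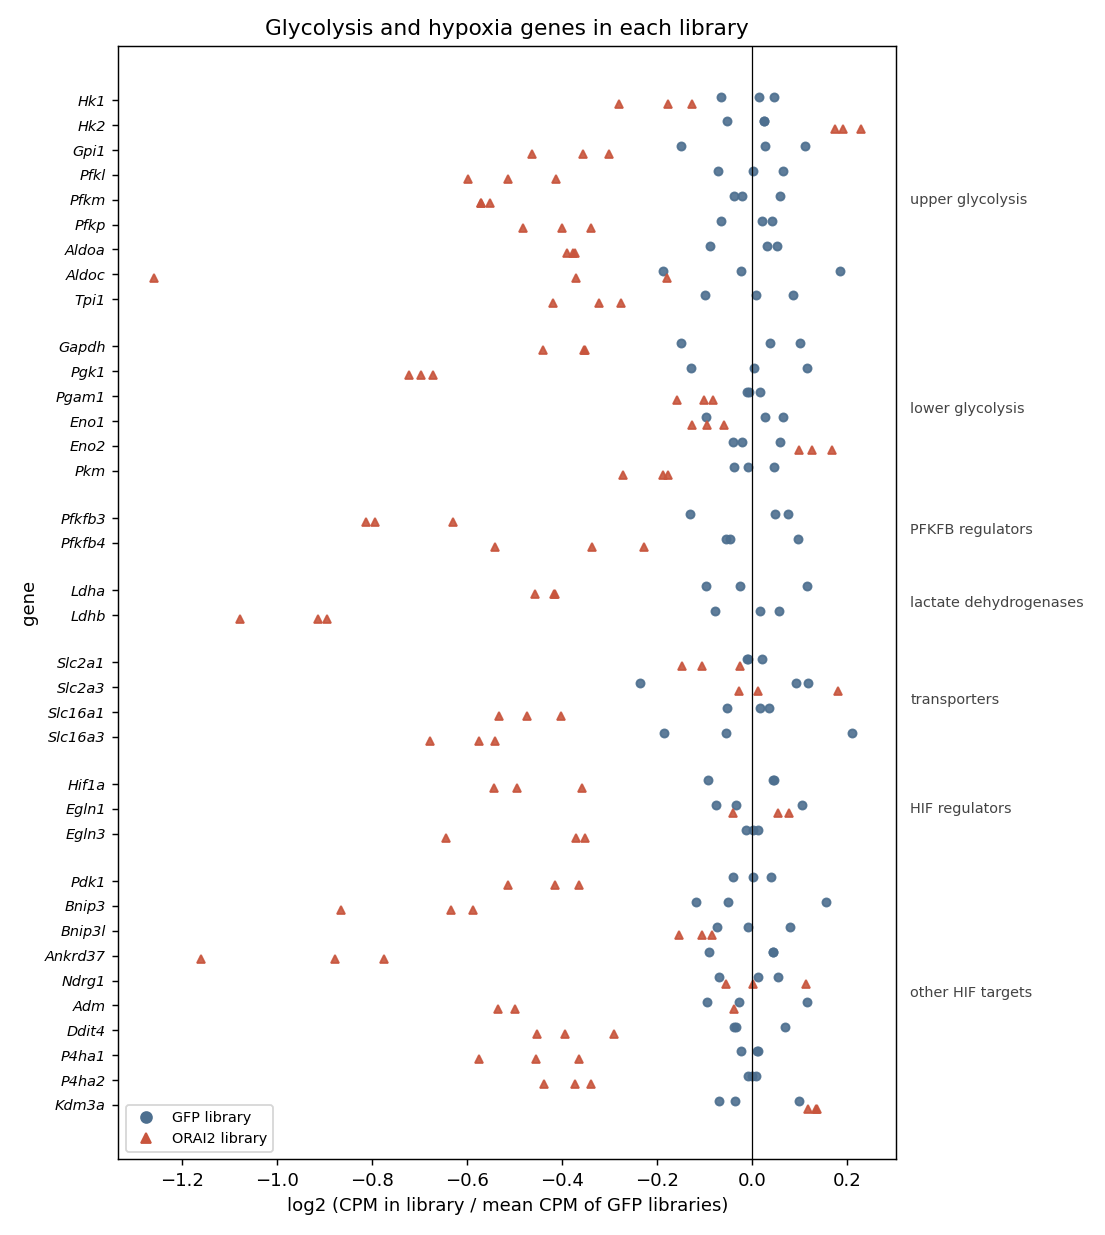
Level of each measured gene in each library as the log2 ratio of its CPM to the mean CPM of the 3 GFP libraries (x axis), with genes grouped by role (y axis). Circles are GFP libraries and triangles are ORAI2 libraries. Triangles lie to the left of all circles for 27 of 36 genes and to the right for 3.

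The enzymes and the HIF genes had like medians. Of the 19 enzyme genes 15 fell, 1 rose and 3 did not pass, with a median log2 fold change of -0.38. Of the 4 transporters 2 fell and 2 did not pass (median -0.28). Of the 13 measured HIF genes 10 fell, 1 rose and 2 did not pass (median -0.38). Among the 9 measured HIF targets that are not regulators of HIF or of pyruvate entry, 7 fell, 1 rose and 1 did not pass (median -0.38). Differences between the classes were not tested. The summed level of the 19 enzymes was 9975, 9556 and 8892 CPM in the GFP libraries and 7618, 7604 and 7536 CPM in the ORAI2 libraries, which is 80.1% of the GFP mean. The GFP libraries were spread more widely than the ORAI2 libraries, and GFP replicate 1 had the highest GFP level for 12 of the 19 enzymes and GFP replicate 3 the lowest for 13.

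**Figure D2:**
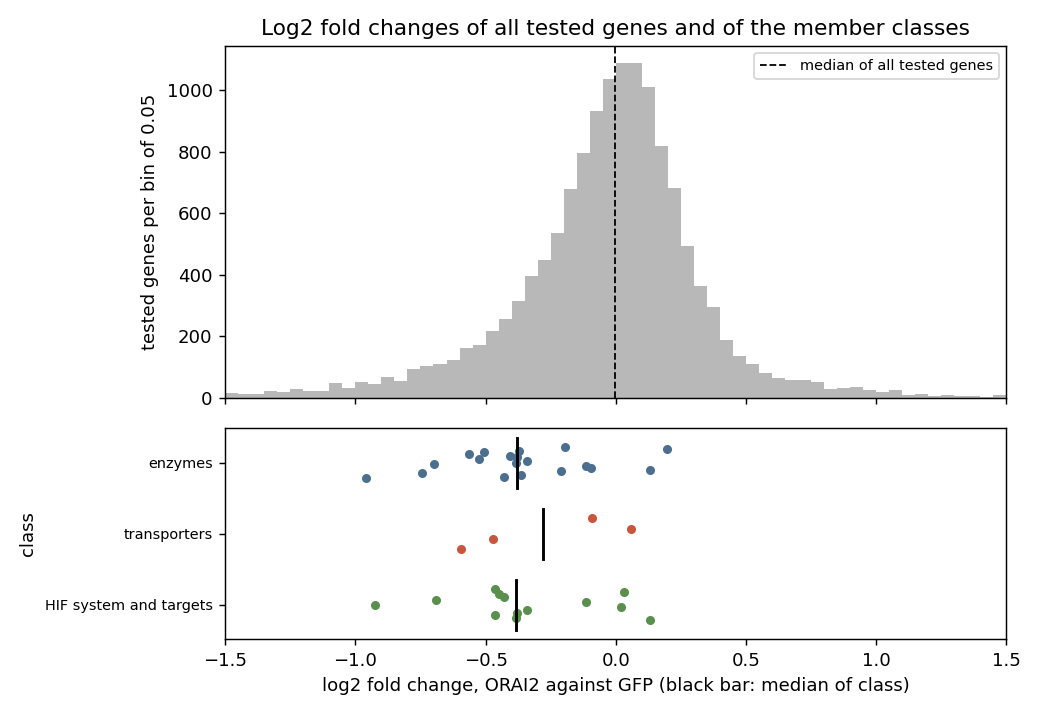
Top, number of tested genes per bin of log2 fold change (x axis) in ORAI2 against GFP; 138 genes beyond 1.5 in either direction are outside the axis. Bottom, the listed genes of each class on the same axis, with a black bar at the class median. The enzyme and HIF medians both lie at -0.38, and the median of all tested genes is -0.002.

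HIF-1 recognises a short core sequence, and its presence near the start of transcription is shown here for 6 of the genes because they include members that fell in each class and 1 that rose. The sequences are the 250 bases before the RefSeq start (GRCm38.p6, a build older than the GRCm39 named by the submitters), 5′ to 3′ on the gene's strand, and for Ldha, which has 2 starts in the table, the first listed. Capitals mark ACGTG and GCGTG, the forms of the core, on either strand. A match is a description of the letters and not evidence of binding. All 6 stretches shown hold ACGTG, while only 20 of the 34 listed genes with a promoter do.
Pgk1 (chrX:106186850-106187099, plus strand): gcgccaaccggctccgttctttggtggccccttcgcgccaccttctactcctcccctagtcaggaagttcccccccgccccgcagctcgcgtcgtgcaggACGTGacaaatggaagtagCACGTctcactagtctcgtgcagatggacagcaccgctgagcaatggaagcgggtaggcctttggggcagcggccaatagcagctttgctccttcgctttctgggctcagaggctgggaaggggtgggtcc
Ldha (chr7:46845554-46845803, plus strand): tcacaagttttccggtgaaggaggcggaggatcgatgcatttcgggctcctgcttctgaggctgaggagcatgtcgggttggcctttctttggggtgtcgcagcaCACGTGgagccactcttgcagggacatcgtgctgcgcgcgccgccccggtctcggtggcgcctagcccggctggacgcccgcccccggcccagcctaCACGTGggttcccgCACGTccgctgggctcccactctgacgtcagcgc
Slc16a1 (chr3:104638414-104638663, plus strand): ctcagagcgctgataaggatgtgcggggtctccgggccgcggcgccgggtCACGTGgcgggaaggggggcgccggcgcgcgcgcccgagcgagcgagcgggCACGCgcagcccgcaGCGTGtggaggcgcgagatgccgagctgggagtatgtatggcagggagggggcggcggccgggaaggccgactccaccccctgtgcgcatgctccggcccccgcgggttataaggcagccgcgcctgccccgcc
Bnip3 (chr7:138909507-138909756, minus strand): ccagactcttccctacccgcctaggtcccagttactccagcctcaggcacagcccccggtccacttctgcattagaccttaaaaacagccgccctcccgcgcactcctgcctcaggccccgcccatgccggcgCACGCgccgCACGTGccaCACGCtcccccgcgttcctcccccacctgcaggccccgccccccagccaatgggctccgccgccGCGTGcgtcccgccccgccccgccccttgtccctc
Ankrd37 (chr8:45999851-46000100, minus strand): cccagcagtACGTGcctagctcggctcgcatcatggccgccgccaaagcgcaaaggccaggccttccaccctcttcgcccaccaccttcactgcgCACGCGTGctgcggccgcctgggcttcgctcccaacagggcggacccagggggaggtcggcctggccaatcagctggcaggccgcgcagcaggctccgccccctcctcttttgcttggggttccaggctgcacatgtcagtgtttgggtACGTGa
Hk2 (chr6:82774455-82774704, minus strand): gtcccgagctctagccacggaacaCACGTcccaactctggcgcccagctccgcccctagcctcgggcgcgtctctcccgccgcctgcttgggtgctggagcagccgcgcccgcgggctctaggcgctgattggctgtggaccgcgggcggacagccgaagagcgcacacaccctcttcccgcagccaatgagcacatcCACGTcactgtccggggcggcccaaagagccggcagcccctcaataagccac
The Pgk1 stretch held 2 copies of ACGTG, 1 on each strand. The Ldha stretch held 2 copies of CACGTG, a palindrome that counts as ACGTG on both strands and is also the core read by MYC-type factors, and a further ACGTG on the opposite strand. Slc16a1 and Bnip3 held 1 CACGTG each, with 2 and 3 copies of GCGTG. Hk2, which rose, held 2 copies of ACGTG and no GCGTG, while Ankrd37, which fell, held 2 copies of each.

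A promoter was found in the RefSeq table for 34 of the 37 genes. ACGTG on either strand within the 250 bases of any start was present for 20 of them (58.8%). It was present for 24.9% of the 10709 tested genes with a promoter and 18.5% of all 27025 genes with one. By class it was present for 8 of 19 enzymes, 3 of 3 transporters and 9 of 12 HIF genes. GCGTG was present for 23 of the 34 (67.6%), against 49.2% of the tested genes and 30.9% of all genes with a promoter. CACGTG was present for 6 (17.6%), against 9.86% and 6.86%. Over all tested genes, ACGTG was found for 22.6% of those that fell, 29.5% of those that rose and 24.1% of those that did not pass. Among the listed genes it was found for 16 of 26 that fell, 1 of 2 that rose and 2 of 5 that did not pass. The list was drawn up from known HIF targets among others, so these shares are a description with no test. The mean GC content of the stretches was 62.3% for the listed genes and 59.7% for the tested genes.

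Summed over the listed genes of each step, glucose uptake and hexokinase moved little (94.3% and 99.9% of the GFP level), as did enolase (94.2%). Slc2a1 (GLUT1), the main glucose importer of growing cells, was at 134, 134 and 137 CPM in GFP and 122, 125 and 133 CPM in ORAI2 libraries. All 3 ORAI2 values were the lower ones, but the difference did not pass (log2 fold change -0.09, 95% confidence interval -0.18 to -0.01, adjusted p = 0.0778, edgeR). It passed without ORAI2 replicate 3, with upper quartile factors and with the replicate number as a block (adjusted p = 0.0347, 0.0380 and 0.0469), but in no other alternative. Slc2a3 (GLUT3), a high-affinity importer, was at 5.82 ± 0.77 and 6.06 ± 0.47 CPM (SD, n = 3 each) with overlapping groups, and its interval ran from -0.22 to 0.34. Per kilobase of transcript, Slc2a1 stood at 41.4 CPM and Slc2a3 at 1.47 CPM in the GFP libraries.

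The 2 hexokinases, which trap glucose as glucose 6-phosphate, moved in opposite directions. Hk1, the form of most tissues, fell from 120, 117 and 111 CPM to 103, 95.5 and 106 CPM (log2 fold change -0.19, SE 0.05, adjusted p = 0.00481, edgeR). Hk2, the inducible form and a classical HIF target, rose from 98.2, 98.2 and 93.0 CPM to 113, 110 and 109 CPM (log2 fold change 0.20, SE 0.04, adjusted p = 0.00114, edgeR). Neither pair of groups overlapped. Their summed level was 212.3 ± 7.53 CPM in GFP and 212.1 ± 5.5 CPM in ORAI2 libraries, while the share of Hk2 in the counts of both genes went from 45.4% ± 0.34 to 52.2% ± 1.49 (SD, n = 3 each; exact two-sided permutation p = 0.1, the smallest that 3 against 3 allows).

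The steps that follow, down to 1,3-bisphosphoglycerate, all fell by similar amounts. Gpi1, which isomerises glucose 6-phosphate, went from 208 ± 18.9 to 161 ± 9.06 CPM (1.29-fold lower). The 3 phosphofructokinase genes encode the committed enzyme of the pathway, and all fell. Pfkl, the liver form, was at 105, 99.4 and 109 CPM in GFP and 69.1, 78.5 and 73.2 CPM in ORAI2 libraries (1.42-fold lower, adjusted p = 7.44e-06, edgeR). Pfkm, the muscle form, was at 51.5, 48.1 and 48.7 CPM against 33.3, 33.3 and 33.7 CPM (1.48-fold lower, adjusted p = 1.85e-06, edgeR). The groups were far apart for both genes relative to the spread within them. Pfkp, the platelet form, was 1.33-fold lower, but up to 748 bases of its exons lie opposite exons of Pitrm1 (a mitochondrial protease gene with a mean of 3345 counts), and whether the counting used strand is not stated in the labels. Its value is therefore uncertain. Summed over the 3 genes, phosphofructokinase was at 223 ± 4.94 CPM and 159 ± 2.14 CPM, or 71.4% of the GFP level.

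Aldoa, the main aldolase, fell from 537, 545 and 494 CPM to 405, 404 and 401 CPM (1.3-fold lower, adjusted p = 1.03e-05, edgeR). Its paralogue Aldoc was scarce, with 22 counts at most in a library, and its interval from -1.21 to 0.16 holds both no change and a fall larger than that of any other listed gene. Tpi1, triosephosphate isomerase, went from 704, 667 and 619 CPM to 496, 547 and 530 CPM (1.26-fold lower). Gapdh, often used as a reference gene, went from 2574, 2462 and 2162 CPM to 1877, 1880 and 1767 CPM (1.3-fold lower, adjusted p = 1.46e-04, edgeR). In all 3 the lowest GFP library stayed above the highest ORAI2 library. Gapdh has 78 other annotated genes with at least 95% identity over 200 or more bases, so that part of its reads may have been assigned elsewhere.

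Pgk1, phosphoglycerate kinase, the first step that yields ATP, showed the largest fall among the abundant enzymes. It was at 1136, 1052 and 960 CPM in GFP and 647, 658 and 636 CPM in ORAI2 libraries (1.62-fold lower, log2 fold change -0.70, SE 0.05, adjusted p = 5.21e-07, edgeR). The ORAI2 libraries sat at 61.7% of the GFP mean with little spread. Of 4 annotated near-identical copies of Pgk1, Pgk1-rs7 and Gm5537 match it at 100% over 1255 and 1252 bases, and none was matched to a row of the count table, so reads from the copies cannot be told apart from those of Pgk1. Such matches (at least 95% identity over 200 bases) were found for 13 of the 37 genes, which besides Gapdh, Eno1, Bnip3l and Pfkp (its match is the Pitrm1 overlap) are Bnip3, Gpi1, Ldha, Ldhb, Ndrg1, Pgam1, Pkm and Tpi1. The steps beyond it moved less. Pgam1, phosphoglycerate mutase, was at 363, 357 and 358 CPM against 322, 335 and 339 CPM (1.08-fold lower, adjusted p = 0.0176, edgeR), a call that was lost when GFP replicate 1 or ORAI2 replicate 1 was left out and with offsets for GC content (adjusted p = 0.0529, 0.0781 and 0.0705).

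Eno1, the main enolase, was at 968, 943 and 866 CPM in GFP and 867, 888 and 848 CPM in ORAI2 libraries, with overlapping groups (log2 fold change -0.09, adjusted p = 0.105, edgeR). The overlap came from GFP replicate 3, and without it the fall passed (log2 fold change -0.14, adjusted p = 0.0114). It also passed with upper quartile factors and with the replicate number as a block (adjusted p = 0.0429 and 0.0437), but in no other alternative. The fitted fall was smallest with GC offsets (log2 fold change -0.039), and without GFP replicate 1 the log2 fold change was -0.061. Eno1 also shares 99.5% identity over 1736 bases with Eno1b, which has a mean of 82.3 counts. Eno2, the neuronal enolase, was at 29.0, 29.4 and 31.0 CPM against 32.5, 31.9 and 33.5 CPM, so that all ORAI2 values were the higher ones, without passing (log2 fold change 0.13, adjusted p = 0.0718, edgeR). With GC offsets it passed (adjusted p = 0.0316), but in no other alternative (adjusted p = 0.211 with DESeq2). Pkm, pyruvate kinase, fell from 2352, 2262 and 2218 CPM to 2000, 1887 and 2015 CPM (1.16-fold lower, adjusted p = 9.02e-04, edgeR). The table gives 1 value per gene, so its M1 and M2 splice forms cannot be told apart.

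**Figure D3:**
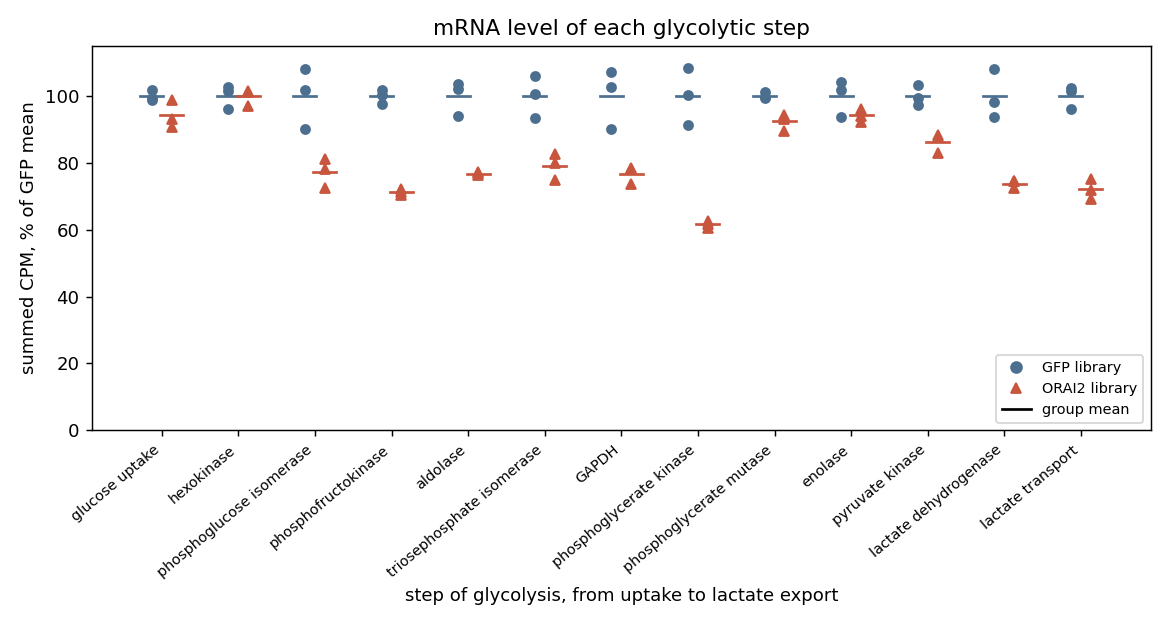
Summed CPM of the listed genes of each step, as a percentage of the mean of the 3 GFP libraries (y axis, from 0), in pathway order from glucose uptake to lactate export (x axis). Circles are GFP libraries, triangles ORAI2 libraries and lines group means. Hexokinase stays at 99.9% of the GFP level, phosphoglycerate kinase is lowest at 61.7%, and glucose uptake (94.3%) and enolase (94.2%) overlap between the groups.

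The fall was uneven along the pathway. Summed over the listed genes of each step, glucose uptake stood at 94.3% of the GFP level and hexokinase at 99.9%. Enolase stood at 94.2% and phosphoglycerate mutase at 92.4%. Pyruvate kinase stood at 86.4% and phosphoglycerate kinase, the lowest, at 61.7%. Isomerase, phosphofructokinase, aldolase, triosephosphate isomerase, Gapdh, lactate dehydrogenase and lactate transport lay between 71.4% and 79.1%. The groups overlapped for uptake, hexokinase and enolase and for none of the other 10 steps. The sums leave out genes of the wider pathway list, such as Eno3, Slc2a6 and Slc16a7.

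The PFKFB enzymes make and remove fructose 2,6-bisphosphate, the strongest activator of phosphofructokinase, and both listed genes fell. Pfkfb3, the form with the highest kinase activity, was at 41.0, 46.5 and 47.3 CPM in GFP and 25.6, 29.0 and 25.9 CPM in ORAI2 libraries (1.67-fold lower, log2 fold change -0.74, SE 0.07, adjusted p = 3.52e-06, edgeR). The highest ORAI2 value was well under the lowest GFP value. Pfkfb4, with 8.23 ± 0.49 CPM in GFP and 6.4 ± 0.69 CPM in ORAI2 libraries, fell 1.29-fold (adjusted p = 0.0186, edgeR). That call was lost when GFP replicate 1 or ORAI2 replicate 2 was left out and under DESeq2 (adjusted p = 0.0700, 0.0783 and 0.0725). The other 2 genes of the family, which belong to the wider pathway list and were looked up after its values were seen, did not pass. Pfkfb2 was at 21.6 ± 1.4 CPM in GFP and 23.6 ± 0.9 CPM in ORAI2 libraries (log2 fold change 0.12, adjusted p = 0.173, edgeR), and Pfkfb1 at 4.59 ± 0.22 and 5.13 ± 0.1 CPM (log2 fold change 0.16, adjusted p = 0.311, edgeR). The fall was thus not shared by all 4 PFKFB genes, although the difference between them was not tested.

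Both lactate dehydrogenase genes fell. Ldha, the form that favours lactate production, went from 581, 527 and 502 CPM to 391, 403 and 402 CPM (1.35-fold lower, adjusted p = 1.73e-05, edgeR). Ldhb, the heart form, went from 10.6, 11.3 and 11.6 CPM to 5.92, 5.29 and 6.003 CPM (1.94-fold lower, log2 fold change -0.96, SE 0.10, adjusted p = 7.72e-06, edgeR), the largest fitted fall of the 36 genes. Per kilobase of transcript, Ldha stood at 296 CPM and Ldhb at 8.56 CPM in the GFP libraries, so that the pair was almost wholly Ldha in both groups. The share of Ldhb in the pair's counts was 2.05% ± 0.24 in GFP and 1.42% ± 0.11 in ORAI2 libraries (SD, n = 3 each; exact permutation p = 0.1).

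Lactate leaves or enters cells with a proton through the monocarboxylate transporters, and both listed genes fell. Slc16a1 (MCT1) was at 456, 428 and 449 CPM in GFP and 307, 320 and 336 CPM in ORAI2 libraries (1.39-fold lower, adjusted p = 2.05e-06, edgeR). Slc16a3 (MCT4), the exporter induced by HIF, was at 11.7, 10.7 and 14.0 CPM against 8.13, 8.33 and 7.57 CPM (1.51-fold lower, adjusted p = 9.11e-04, edgeR). The groups did not overlap for either gene. Slc16a1 made up nearly all of the pair, at 100.4 CPM per kilobase in GFP libraries against 2.79 CPM per kilobase for Slc16a3. The share of Slc16a3 in the pair's counts differed by -0.208 percentage points, and by -0.0185 without GFP replicate 3, with overlapping groups. Another gene of the family, Slc16a7 (MCT2), comes from the wider pathway list and was scarce, at 3.49, 3.05 and 3.64 CPM against 1.56, 1.34 and 2.00 CPM. It was 2.08-fold lower (log2 fold change -1.05, SE 0.20, adjusted p = 9.06e-04, edgeR), and was named after its values were seen.

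**Figure D4:**
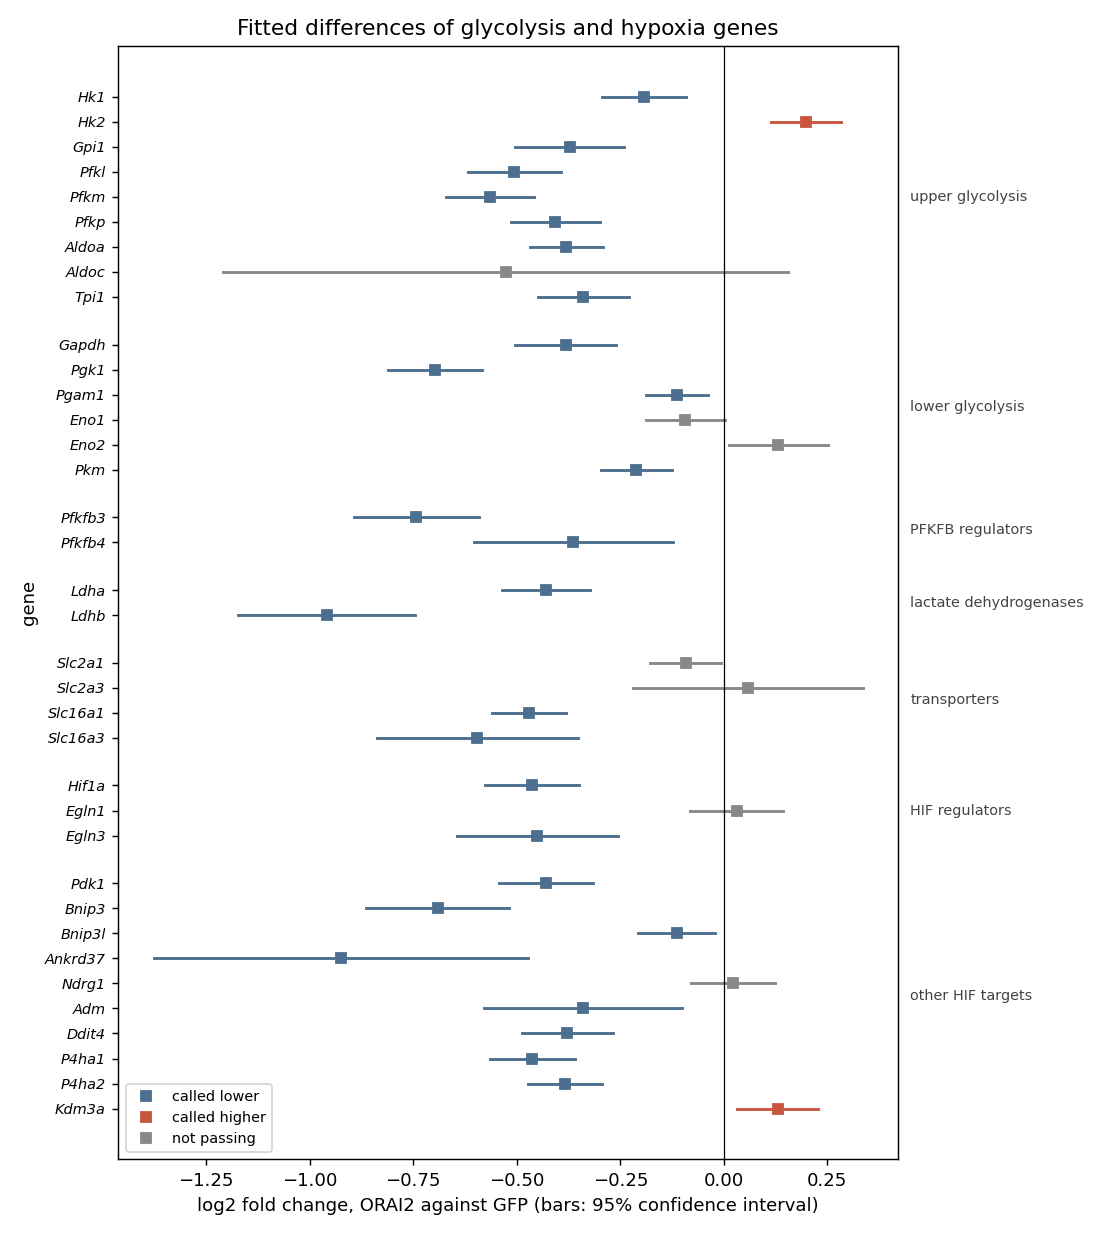
Fitted log2 fold change of each measured gene, ORAI2 against GFP (x axis), with its 95% confidence interval, by role (y axis). Blue genes were called lower, red genes higher and grey genes did not pass; Aldoc and Ankrd37, the scarcest, have the widest intervals.

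Hif1a, which encodes the oxygen-regulated subunit of HIF-1, fell from 874, 793 and 873 CPM to 581, 601 and 660 CPM (1.38-fold lower, log2 fold change -0.46, SE 0.05, adjusted p = 1.62e-05, edgeR). All ORAI2 values were under all GFP values. HIF-1α is controlled mainly at the protein level, which was not measured here. Of its prolyl hydroxylases, Egln1 (PHD2), the main one in most cells, was at 80.6, 78.4 and 88.9 CPM against 80.3, 87.1 and 85.7 CPM, with overlapping groups and an interval from -0.08 to 0.14. Egln3 (PHD3), itself a HIF target, fell from 16.1, 16.2 and 16.0 CPM to 10.3, 12.4 and 12.6 CPM (1.37-fold lower, adjusted p = 0.0014, edgeR). The share of Egln3 in the counts of both genes went from 16.3% ± 1.00 to 12.2% ± 0.77 (SD, n = 3 each; exact permutation p = 0.1).

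Pdk1, a kinase that shuts off pyruvate dehydrogenase and so keeps pyruvate out of mitochondria, averaged 49.6 ± 1.38 CPM in GFP and 36.8 ± 1.92 CPM in ORAI2 libraries (1.35-fold lower, adjusted p = 3.22e-05, edgeR). Bnip3, a mitochondrial outer membrane receptor for mitophagy, fell from 59.0, 61.8 and 71.3 CPM to 35.2, 42.6 and 41.3 CPM (1.61-fold lower, adjusted p = 1.95e-05, edgeR). Its paralogue Bnip3l (NIX) changed far less, from 176 ± 9.38 to 162 ± 4.02 CPM (1.08-fold lower, adjusted p = 0.0457, edgeR). The Bnip3l call was lost without any single library other than GFP replicate 3, under DESeq2, RLE factors or an unfiltered table (adjusted p from 0.0502 to 0.193). Bnip3l also shares 99.2% identity over 663 bases with a pseudogene of its own, at a mean of 300.5 counts. The share of Bnip3l in the counts of the pair went from 73.3% ± 2.94 to 80.4% ± 1.65 (SD, n = 3 each; exact permutation p = 0.1).

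Ankrd37, a small ankyrin repeat protein gene used as a readout of HIF activity, went from 2.15, 2.36 and 2.36 CPM to 1.02, 1.34 and 1.24 CPM (1.9-fold lower, log2 fold change -0.93, SE 0.21, adjusted p = 0.00318, edgeR). It rests on 19 to 44 counts per library. Up to 259 bases of its exons lie opposite exons of Lrp2bp (mean of 5.8 counts). Up to 57 bases lie opposite exons of Ufsp2, which has a mean of 767.7 counts. Strand use is not stated in the labels, so the value of Ankrd37 is uncertain. Ddit4 (REDD1), an inhibitor of mTORC1, averaged 78.3 ± 3.35 CPM against 60.2 ± 3.41 CPM (1.3-fold lower, adjusted p = 6.92e-05, edgeR). Adm, the vasodilator peptide adrenomedullin, was at 31.6, 30.2 and 34.9 CPM against 22.2, 22.8 and 31.4 CPM. ORAI2 replicate 3 reached into the GFP range. The Adm call (adjusted p = 0.0251, edgeR) was lost when any of GFP replicate 3 and ORAI2 replicates 1 and 2 was left out (adjusted p = 0.0884, 0.113 and 0.110).

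The collagen prolyl 4-hydroxylase subunits, which need oxygen to stabilise the collagen helix, fell together. P4ha1 went from 174, 174 and 170 CPM to 116, 126 and 134 CPM (1.38-fold lower, adjusted p = 7.45e-06, edgeR), and P4ha2 from 85.5, 85.0 and 84.5 CPM to 65.6, 62.7 and 67.2 CPM (1.3-fold lower, adjusted p = 1.01e-05, edgeR). P4ha2 made up 32.9% ± 0.21 and 34.2% ± 1.63 of the pair's counts (SD, n = 3 each). The groups barely separated (33.17% the highest GFP and 33.18% the lowest ORAI2 value), and the difference of 1.26 percentage points was 0.316 without ORAI2 replicate 1.

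Ndrg1, a stress-responsive HIF target, was at 295, 287 and 271 CPM in GFP and 285, 307 and 274 CPM in ORAI2 libraries. The groups overlapped, and its interval from -0.08 to 0.12 lies above the median of the list. Kdm3a, a histone demethylase induced by HIF, rose from 93.6, 95.8 and 105 CPM to 107, 108 and 108 CPM (log2 fold change 0.13, adjusted p = 0.0342, edgeR). The Kdm3a call was lost on leaving out any library but GFP replicate 3, and with DESeq2, upper quartile factors or GC offsets (adjusted p from 0.0578 to 0.140 over these). Car9, the hypoxia-induced carbonic anhydrase of the cell surface, was the gene under the filter, with 4 to 12 counts in every library, at which no difference could be detected.

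**Figure D5:**
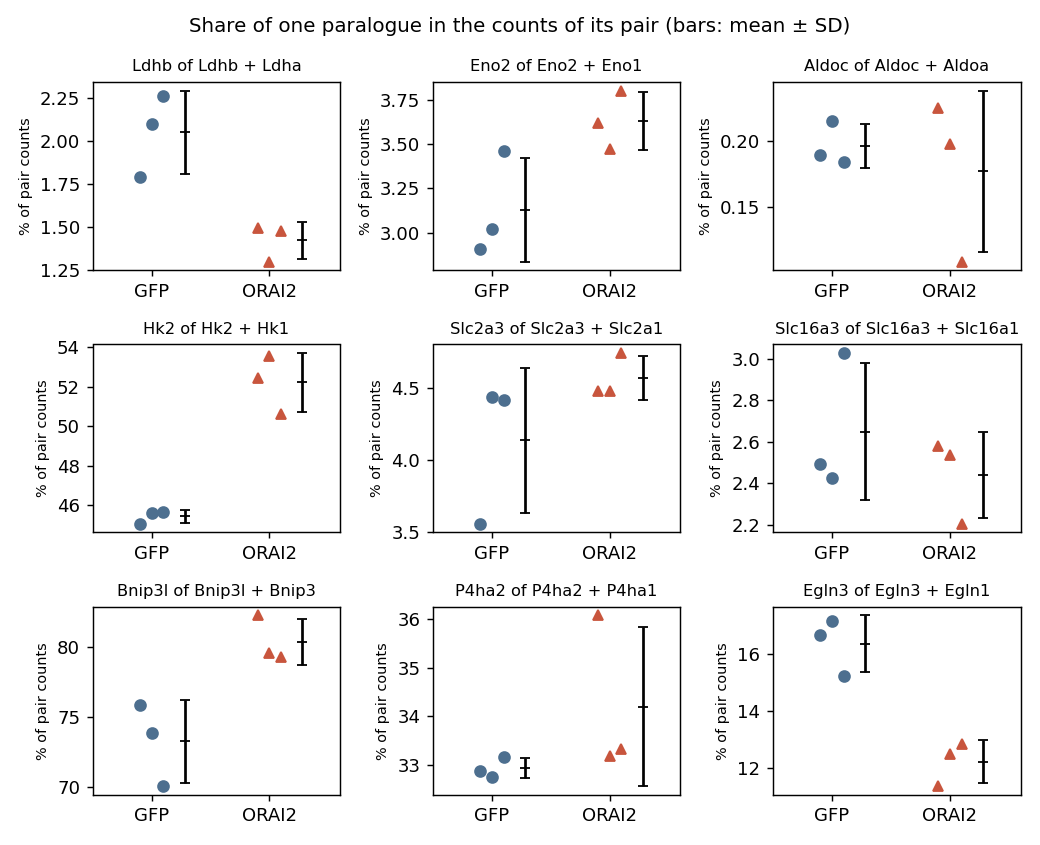
Share of the named paralogue in the summed counts of its pair (y axis, percent, with a range of its own in each panel that does not start at 0) in GFP (circles) and ORAI2 (triangles) libraries, with mean and SD as bars. The shares of Hk2, Bnip3l, Eno2, P4ha2 and Slc2a3 lie higher in every ORAI2 library, those of Ldhb and Egln3 lower, and those of Aldoc and Slc16a3 overlap. The groups of Eno2, P4ha2 and Slc2a3 barely separate.

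Shares within a library do not depend on the scaling between libraries, and they were compared for 9 pairs. The groups did not overlap for 7 of the 9. The exact permutation p was 0.1 for each of these, the smallest this design can give, and 0.129 after adjustment over the 9 pairs. No share over other gene pairs was computed to set beside this count. The Eno2 groups barely separated (3.46% the highest GFP and 3.47% the lowest ORAI2 value), as did those of Slc2a3 (4.43% and 4.48%). For Slc2a3, the share was 4.13% ± 0.50 against 4.57% ± 0.15, a difference within the spread of the GFP libraries, and it went from 0.431 to 0.141 percentage points without GFP replicate 1.

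Other genes of the same pathways, from a list of 110 of which 88 were measured, moved less uniformly. Of the 88, 35 fell, 13 rose and 40 did not pass, with a median log2 fold change of -0.07. That is 39.8% lower and 14.8% higher, against 22.1% and 20.8% of all tested genes. This list too was chosen with earlier results of these data known. Of 18 genes listed as glycolytic isoenzymes and branch genes 6 fell and 2 rose (Galm, and Pgam5, which is not a glycolytic enzyme). Of 8 further transport genes 3 fell, of 9 HIF system genes 2 fell and 1 rose. Of 44 further HIF targets 19 fell and 10 rose. The share of HIF system genes that fell (22.2%) and the share of further HIF targets that rose (22.7%) were near those of all tested genes. The genes around pyruvate dehydrogenase fell in 5 of 9 cases and rose in none. Pdk3 averaged 114 ± 3.36 CPM in GFP and 77.1 ± 3.88 CPM in ORAI2 libraries (1.48-fold lower, adjusted p = 8.83e-07, edgeR), and Pdk4 and Pdk2 were 1.72-fold and 1.5-fold lower (adjusted p = 5.22e-04 and 0.0314). All 4 kinases of pyruvate dehydrogenase therefore fell, and so did Pdp1, a phosphatase that opposes them (1.49-fold lower). Bsg (basigin), the chaperone that carries MCT1 and MCT4 to the membrane, was 1.27-fold lower, from 773 ± 31.9 to 610 ± 0.89 CPM.

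Among the further HIF targets, the largest change was that of Lox, which cross-links collagen, from 1035 ± 36.2 to 427.7 ± 43.6 CPM (2.42-fold lower, adjusted p = 1.64e-08, edgeR). Mxi1, an antagonist of MYC, Nfil3, a transcription factor, and Isg20, an exonuclease that interferon also induces, were 1.66-fold, 1.43-fold and 1.74-fold lower. Vegfa, the best known angiogenic HIF target, had a smaller fall, from 375 ± 15.9 to 342 ± 11.3 CPM (1.1-fold lower, adjusted p = 0.0186, edgeR). Rising members were Klf6, a transcription factor, Rsbn1 and Wsb1, at 1.66-fold, 1.61-fold and 1.28-fold. Galm, which interconverts the anomers of glucose and galactose, rose 1.74-fold, with means of 24.2 ± 0.52 and 41.9 ± 2.36 CPM (adjusted p = 4.43e-07, edgeR), and Pgam5, a mitochondrial phosphatase and not a glycolytic enzyme despite its name, rose 1.22-fold. The HIF partner Arnt was 1.11-fold lower (adjusted p = 0.00663), Hif1an, which blocks HIF-1α transactivation, rose 1.18-fold, and Vhl, which targets HIF-1α for degradation, did not pass (log2 fold change -0.06, adjusted p = 0.344, edgeR).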

How the data were processed

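Gene expression was measured by RNA sequencing of poly(A) RNA in 6 MEF libraries, 3 with GFP and 3 with ORAI2. Per the file headers, the authors deposited 1 table that gives each gene a count, in whole numbers, and a TPM in every library. The submitters' processing notes name Salmon 1.4.0, HISAT2 2.0.4 and the build GRCm39. What each tool did, the annotation, strand use and whether counts are rounded estimates: not given in the sources used here. TPM columns disagreed with same-named count columns and entered no main result.

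Symbols came from a RefSeq table of GRCm38.p6, which matched 25631 of 26532 Entrez numbers. Counts were tested with edgeR 4.0.16 (quasi-likelihood, TMM, filterByExpr with a minimum count of 10) in R 4.3.3, with group as the only term. CPM are scaled by TMM. Standard errors come from the F statistic. Lengths are those of the longest coding transcript in GENCODE M21 (GRCm38). Copies were searched by BLAST among its transcripts, and shares were compared with scipy 1.17.1. The fit was tested on simulated data. The members and lists were chosen with earlier results of these data known. All 37 genes are named; per-library values are given for the called genes with an absolute log2 fold change of at least 0.5 or a mean over 200 CPM and for some others, and from the other pathway genes the 5 lower and 5 higher calls with the smallest p, with further ones chosen after their values were seen. Libraries of a group were not copies of each other (chi-square per gene between 2.62 and 4.75). Alternatives were other normalisations and filters, DESeq2 1.42.0, limma-voom (limma 3.58.1), a replicate block, GC offsets in 10 bins, and each library left out. A fit without replicate 1 of each group and a limma fit to log2(TPM + 1) of the TPM columns numbered 1 and 2 were added after the data were seen.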

Additional observations from a re-analysis of the deposited data

Results flagged for a closer look

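The deposited TPM columns, which enter no main result and were used in 1 alternative fit only, held more Orai2 than the GFP columns in 2 places. Orai2 stood at 1429.5 TPM under the heading ORAI2 replicate 1 and at 1241.34 TPM under ORAI2 replicate 2, against 24.83 to 38.19 TPM under the GFP headings. Under ORAI2 replicate 3 it stood at 36.33 TPM, within the range of the GFP columns. Over 10724 genes, the deviations in the TPM column GFP replicate 1 correlated best with the counts of GFP replicate 2 (r = 0.60), those of TPM column GFP replicate 2 with the counts of GFP replicate 3 (r = 0.60), and those of TPM columns ORAI2 replicates 1 and 2 with the counts of ORAI2 replicates 2 and 3 (r = 0.82 and 0.76). The TPM column GFP replicate 3 correlated best with the counts of GFP replicate 1 (r = 0.47). The TPM column ORAI2 replicate 3 followed no count column (r from -0.14 to 0.16). These r are across genes, which are not independent replicates.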

How the results depend on the processing

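Over 17 alternatives the number of listed genes called lower lay between 22 and 29 and the number called higher between 0 and 2. Of the 27 lower calls, 23 held in each of the 6 fits that left out 1 library and 22 in every alternative that tested the gene. Aldoc and Ankrd37 were not tested with the filter at 5 CPM. Calls and directions of 23 of the 36 genes were unchanged wherever they were tested. The Hk1 and Hk2 calls were lost only in the TPM fit (adjusted p = 0.0755 and 0.0726, limma). The others are named in the report with values from part of the alternatives. The calls of Adm, Bnip3l, Kdm3a, Pfkfb4 and Pgam1 were also lost with replicates 2 and 3 only (adjusted p = 0.137, 0.261, 0.184, 0.121 and 0.152, edgeR). The TPM fit lost these calls as well (adjusted p = 0.219, 0.159, 0.533, 0.141 and 0.091, limma). The number called higher was 1, not 2, with upper quartile factors, with DESeq2 and with replicates 2 and 3 only, 0 in the TPM fit, and 1 to 2 on leaving out single libraries. Over all genes, the TPM fit, with 4 columns, called 1966 lower and 1232 higher. None of the results that reversed in sign was called. On leaving out single libraries, Egln1 ran from -0.007 (without GFP replicate 2) to 0.085, Ndrg1 from -0.021 (without ORAI2 replicate 2; -0.013 without GFP replicate 3) to 0.065, and Slc2a3 from -0.048 (without GFP replicate 1; -0.002 without ORAI2 replicate 3) to 0.119, all as log2 fold changes. Slc2a3 was also at -0.006 with replicates 2 and 3 only and at -0.022 in the TPM fit. The Aldoc share differed by -0.0194 percentage points, and by -0.0436 to 0.0152 on leaving out single libraries, positive without ORAI2 replicate 3. The causes were not tested. Same-numbered libraries correlated at r = 0.088, 0.137 and 0.147 in their deviations, and each library correlated best with its own number, but the labels name no shared source. With the replicate block 29 listed genes were lower and 2 higher, against 27 and 2. Counts under about 20 per library limit Aldoc and Car9.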
